A study of Mus musculus with 8 samples.

Results

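The libraries described here are 4 of the 8 in a bulk RNA sequencing series of mouse sarcoma cells: 2 titled shMif, from cells given a short hairpin RNA against Mif, and 2 titled shSCR, from cells given a control hairpin. They were chosen by their titles, which add Mif-KD (knockdown) for shMif and Mif-WT (wild type) for shSCR, and are described across 16309 genes. All 4 came from C57BL/6 mesenchymal stem cells transformed by p53 knockout together with forced expression of Ccne1, which encodes cyclin E1, and grown first as primary tumours. The design text says that the hairpin cells also carried Cas9, whereas the growth protocol gives Cas9 for the guide RNA cells alone. Cells were transplanted under the skin of a second set of mice on polyurethane scaffolds, and tumours were dissociated and sorted on a fluorescent marker before total RNA was extracted. The other 4 libraries, sgMif and sgSCR, came from the same cells with Cas9 and a guide against Mif or a non-targeting guide. They entered the fit to share its estimate of spread. Their titles add Mif-KO (knockout) for sgMif and Mif-WT for sgSCR. Neither the hairpin sequences, the number of clones nor the age of the mice is given in the sources used here. Whether both libraries of a group derive from different mice is not stated, so each p-value reflects the spread among these particular libraries and that spread may be technical.

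A short hairpin RNA is cut by Dicer into a small RNA that guides Argonaute to a matching transcript, which is then cleaved or silenced, so a working hairpin usually lowers the targeted mRNA. Mif encodes macrophage migration inhibitory factor, a cytokine that many cells secrete and that signals through CD74 and its partners. It is expressed widely, in tumour cells as well as leukocytes, whereas CD74 is typical of antigen-presenting cells such as macrophages.

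A marker of mesenchymal cells was abundant in both groups, which does not tell tumour cells from host fibroblasts. Vim, the intermediate filament of mesenchymal cells, stood at 7079 and 6766 CPM (counts-per-million units, after scaling of the libraries) in the 2 libraries labelled shMif and at 6597 and 8596 in shSCR 1 and 2. Ptprc, which encodes CD45 of all leukocytes, stood at 24.8 and 11.6 CPM against 17.3 and 14.99. Leukocyte transcripts were therefore present at a low level in both groups, with overlapping values; in bulk samples fewer cells of a type and less RNA per cell cannot be told apart. Total estimated counts were 19042235 to 51819308 reads per library, the lowest in shMif 1. The chi-square of the counts over genes divided by its degrees of freedom was 130 between the shSCR libraries and 37.4 between those labelled shMif. This value rises with read depth as well as with disagreement, so it does not rank the 2 pairs. The shSCR libraries were deeper, at 38542409 and 51819308 reads against 19042235 and 36676645. shSCR 1 held the lowest share of reads on mitochondrially encoded genes, 1.63% against 2.12% in shSCR 2 and 2.50 and 2.59% in the libraries labelled shMif.

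The targeted gene comes first. Mif (ENSMUSG00000033307), on the minus strand of chromosome 10 between 75859353 and 75860240 in mm10, stood at 277 and 222 CPM in shMif 1 and 2 and at 170 and 375 CPM in shSCR 1 and 2. The 2 groups overlapped, and the highest and the lowest of the 4 values were both from shSCR. The means were 249.7 ± 39.4 CPM (SD, n = 2) for shMif and 272.6 ± 145 CPM (SD, n = 2) for shSCR. On the log2 scale the difference was -0.13 ± 0.32 (SE), with an adjusted p of 0.925 in edgeR. Its main protein-coding transcript held 98.5 to 99.2% of the reads in each of the 4 libraries. Because the transcript does not bear out the label, the term "libraries labelled shMif" is used throughout. Of the 8 genes in the list of Mif and its receptors 0 passed in edgeR or DESeq2, and 0 had an unadjusted p under 0.05. Cd74 stood at 77.1 and 34.0 CPM against 30.4 and 44.3, and Ackr3, a decoy receptor for chemokines, at 125 and 108 against 113 and 151. The 13 genes of the RNA interference machinery had a median log2 fold change of -0.08 (-0.01 without shMif 1 and -0.05 without shSCR 1), with 0 past an unadjusted p under 0.05, and DESeq2 called 0 of them.

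Between the libraries labelled shMif and shSCR, 3 of 16309 genes passed edgeR's quasi-likelihood test at an adjusted p under 0.05, which is 0.0184% of those tested. All 3 rose: Ccn5, Itgb4 and Vgll3. No gene fell in edgeR, while 829 genes (5.08%) were lower and 682 (4.18%) higher at an unadjusted p under 0.05, together 9.26%. DESeq2 called 123 genes higher and 47 lower on the same counts. Both libraries labelled shMif lay above both shSCR libraries for 3161 genes (19.4%) and below both for 3641 (22.3%), together 41.7% of all genes. Among the 11666 genes whose mean log2 CPM reached 1, those without overlap and at least 2-fold apart numbered 216 higher and 56 lower, and those at least 4-fold apart 23 higher and 4 lower. Over all genes the median log2 fold change was 0.03.

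**Figure D1:**
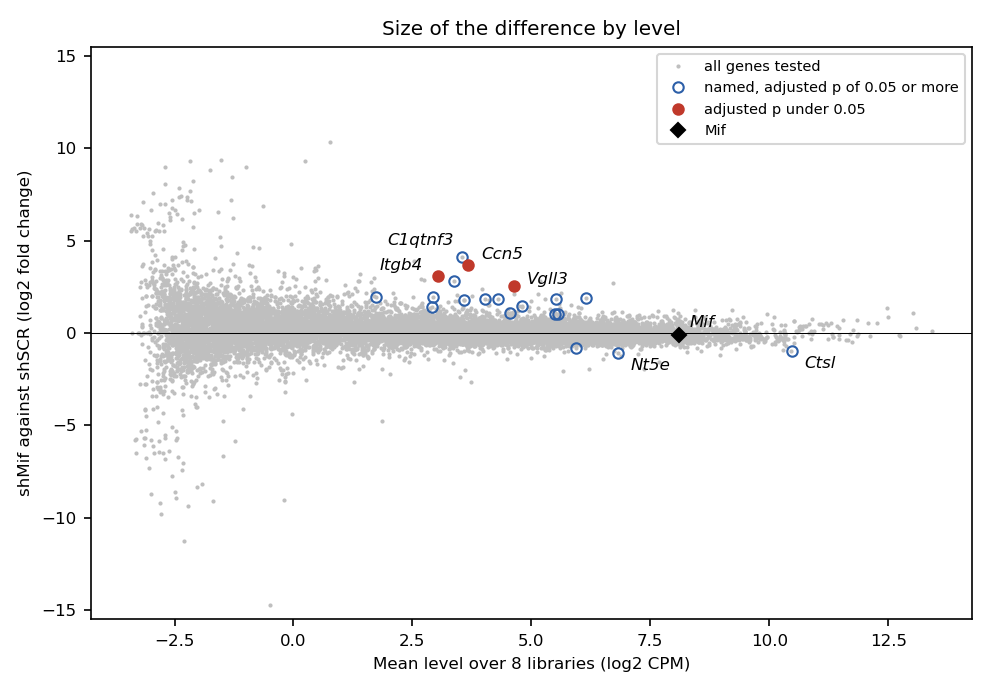
Log2 fold change of shMif against shSCR (vertical axis) for each of 16309 genes by its mean log2 CPM over the 8 libraries (horizontal axis). Red points are the 3 genes past an adjusted p of 0.05 in edgeR, open circles the other named genes and the diamond Mif, which lies at -0.13; the widest scatter is among genes of low level.

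Ccn5 (ENSMUSG00000027656, chromosome 2, 163820861 to 163833146, plus strand) encodes a secreted matricellular protein of the CCN family, which binds matrix and growth factors. It stood at 18.3 and 23.8 CPM in the libraries labelled shMif and at 1.82 and 1.51 CPM in shSCR. The means of 21.1 ± 3.93 and 1.67 ± 0.213 CPM (SD, n = 2) differed 12.7-fold. On the log2 scale the difference was 3.66 ± 0.27 (SE), with an adjusted p of 0.00855 in edgeR. The guide libraries held 22.8 to 39.3 CPM, so that the 2 shSCR libraries were the lowest of the 8 and those labelled shMif lay close to the lower end of the guide libraries. Its protein-coding transcript held 84.1 to 91.2% of the reads in the 4 hairpin libraries.

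Itgb4 (ENSMUSG00000020758, chromosome 11, 115974709 to 116008412, plus strand) encodes integrin beta 4, which pairs with integrin alpha 6 to bind laminin and anchor epithelial cells at hemidesmosomes. It stood at 38.3 and 41.6 CPM in the libraries labelled shMif and at 4.05 and 5.25 CPM in shSCR. The means of 39.9 ± 2.38 and 4.65 ± 0.850 CPM (SD, n = 2) differed 8.58-fold. On the log2 scale the difference was 3.10 ± 0.25 (SE), with an adjusted p of 0.00855 in edgeR. In the guide libraries it stood at 4.04 to 6.56 CPM, so here the 2 libraries labelled shMif stood apart from the other 6. Its partner Itga6, singled out after its values were seen, stood at 146 and 156 CPM against 152 and 156 (log2 fold change -0.03 ± 0.14, edgeR adjusted p = 0.966). Of the laminin chains that epithelial cells lay down, Lamb3 stood at 5.46 and 7.82 CPM against 4.23 and 7.95. It was also chosen after its values were seen and did not pass the test. Most reads of Itgb4 fell on a single protein-coding transcript, with 73.2 and 69.7% in the libraries labelled shMif and 59.5 and 73.9% in shSCR.

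Vgll3 (ENSMUSG00000091243, chromosome 16, 65815257 to 65866368, plus strand) encodes a cofactor of the TEAD transcription factors. It stood at 34.0 and 42.6 CPM in the libraries labelled shMif and at 5.78 and 7.49 CPM in shSCR. The means of 38.3 ± 6.05 and 6.64 ± 1.21 CPM (SD, n = 2) differed 5.77-fold. On the log2 scale the difference was 2.53 ± 0.20 (SE), with an adjusted p of 0.00855 in edgeR. In the guide libraries it stood at 25.4 to 53.4 CPM, which left the 2 shSCR libraries as the lowest of the 8, as for Ccn5. A shorter protein-coding transcript held 28.6 and 16.2% of its reads in the libraries labelled shMif and 0 and 15.4% in shSCR. Of the 18 genes nearest to the 3 called genes, 3 on each side of each, 0 passed edgeR's test. Among these, Robo1 beside Vgll3 had the highest log2 fold change, 1.36 ± 0.58 (edgeR adjusted p = 0.535). Without shSCR 1, all 3 genes still passed edgeR's test, with log2 fold changes of 3.79 for Ccn5 (adjusted p = 0.0467), 2.92 for Itgb4 (adjusted p = 0.047) and 2.35 for Vgll3 (adjusted p = 0.0467). Without shMif 2 none of the 3 passed edgeR (adjusted p = 0.0541 for Ccn5, 0.0866 for Itgb4 and 0.0748 for Vgll3), and without shMif 1 Itgb4 did not (adjusted p = 0.0808).

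The 17 other genes with the smallest p did not pass edgeR's test and are given as values. Their adjusted p ran from 0.0583 to 0.297, 14 were higher and 3 lower in the libraries labelled shMif, and none overlapped between the groups because the naming rule required it. Among matrix genes, Aspn, a small leucine-rich proteoglycan of connective tissue, stood at 86.6 and 141 CPM against 32.1 and 28.8. Mfap4, a glycoprotein of elastic fibres, stood at 6.59 and 9.44 CPM against 0.726 and 1.53. Fbln5, a fibulin needed to assemble elastic fibres, stood at 31.7 and 34.1 CPM against 10.9 and 12.9. For all of these the shSCR libraries were the lowest of the 8. Efemp1, another fibulin, stood at 21.5 and 35.4 CPM against 6.82 and 7.95, and here the libraries labelled shMif were the highest of the 8. Islr, a secreted protein with leucine-rich repeats and a marker of mesenchymal stromal cells, stood at 17.0 and 21.3 CPM against 4.51 and 6.10.

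Secreted signals and their regulators formed another part of these 17. Ptn, the heparin-binding growth factor pleiotrophin, stood at 27.9 and 30.0 CPM in the libraries labelled shMif against 6.33 and 9.99 in shSCR. C1qtnf3, a secreted relative of complement C1q, stood at 29.8 and 44.7 CPM against 1.61 and 2.68, the highest ratio among the 20 named genes (log2 fold change 4.11 ± 0.58, edgeR adjusted p = 0.149). Ccl2 and Ccl7 encode chemokines that draw monocytes through the receptor Ccr2, and they lie side by side on chromosome 11. Ccl2 stood at 42.1 and 45.0 CPM against 20.5 and 22.1. Ccl7 stood at 16.2 and 17.0 CPM against 3.97 and 5.47. Both chemokines were lower in shSCR than in each of the other 6 libraries. Fam20a, a pseudokinase of the secretory pathway, stood at 62.5 and 73.2 CPM against 30.4 and 36.1, with the libraries labelled shMif as the highest and shSCR as the lowest of the 8.

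Of the remaining named genes, Mid1, a ubiquitin ligase of microtubules on the X chromosome, stood at 39.5 and 44.7 CPM against 10.7 and 12.6 (log2 fold change 1.86 ± 0.20, edgeR adjusted p = 0.0583). Itgbl1, a secreted protein with integrin-like repeats, stood at 57.5 and 61.4 CPM against 29.8 and 25.9. Rcan2, a regulator of calcineurin, stood at 6.28 and 5.80 CPM against 1.74 and 1.39. Apol6, of the apolipoprotein L family, stood at 15.3 and 14.02 CPM against 5.81 and 5.41. The 3 genes that were lower have different functions. Nt5e, the ectoenzyme CD73 that makes adenosine, stood at 110.5 and 101 CPM in the libraries labelled shMif against 222 and 228 in shSCR. Ctsl, the lysosomal protease cathepsin L, stood at 1347 and 1132 CPM against 2665 and 2217. Aatf, a nuclear factor of ribosomal RNA processing, stood at 42.1 and 44.0 CPM against 77.3 and 71.6. Nt5e and Ctsl were highest in shSCR among the 8 libraries, and Aatf was lowest in those labelled shMif.

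**Figure D2:**
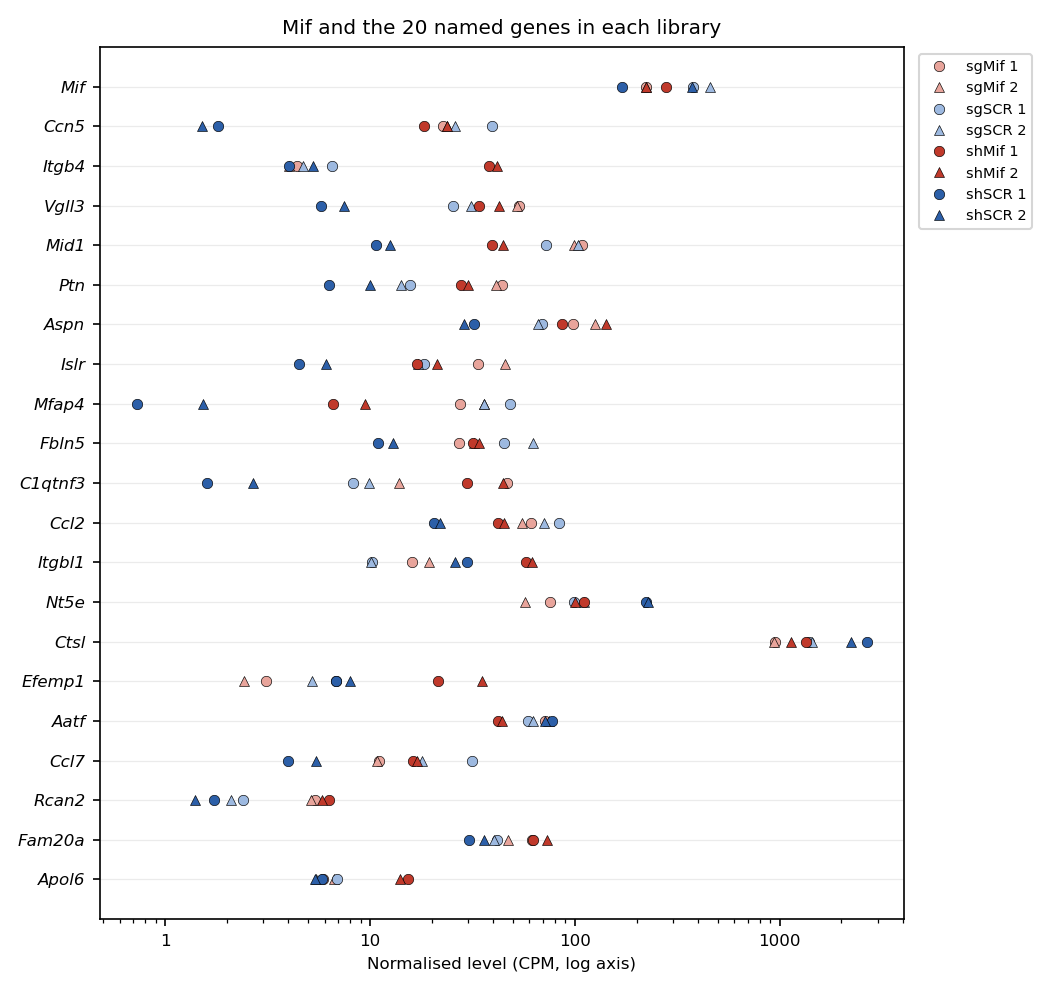
CPM on a log axis of Mif and the 20 named genes in each of the 8 libraries, with circles for libraries numbered 1 and triangles for those numbered 2. For 11 genes, Ccn5 and Vgll3 among them, only the shSCR libraries (dark blue) stand apart, below all others; for Itgb4, Itgbl1, Efemp1 and Apol6 only those labelled shMif (dark red) do, above all others; for Rcan2 and Fam20a both hold, and Mif overlaps.

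The plot of the named genes by library shows which group stood apart. Only the 2 shSCR libraries stood apart for 11 of the 20 genes as the lowest of the 8 and for 2 as the highest, only those labelled shMif did for 4 as the highest and for 1 as the lowest, and for 2 genes both groups did. Over all 6802 genes without overlap, shSCR alone was the lowest for 1135 and the highest for 1528, and the libraries labelled shMif alone were the highest for 590 and the lowest for 484. Both groups stood apart for 52 genes and neither for 3013. Among genes without overlap, shSCR alone was thus more often apart from all other libraries than the libraries labelled shMif alone. These counts do not show which pair left the range of the guide libraries, because each pair was also compared with the other hairpin pair. For Mid1, Mfap4 and Ccl2 the libraries labelled shMif also lay below every guide library. They stood at 39.5 and 44.7 against 72.4 to 108 CPM for Mid1. For Mfap4 the values were 6.59 and 9.44 against 27.5 to 48.2 CPM, and for Ccl2 42.1 and 45.0 against 55.1 to 83.7 CPM. For Itgbl1 shSCR also lay above every guide library (29.8 and 25.9 against 10.1 to 19.5 CPM). The same held narrowly for Efemp1 (6.821 and 7.952 against 2.435 to 6.815 CPM).

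Across 44 lists of cellular programs, medians of the log2 fold change ran from -0.36 to 0.74, against 0.03 for all genes. Itgb4 and Vgll3 were the only listed genes past edgeR's adjusted test, so list counts are given at an unadjusted p under 0.05, to be read against 4.18% of all genes higher and 5.08% lower, or as members without overlap, to be read against 19.4% higher and 22.3% lower. A median is followed by its value without any hairpin library that moved it by more than 1.5 times or changed its sign, and in places by its value without shSCR 1. No list was tested as a set.

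**Figure D3:**
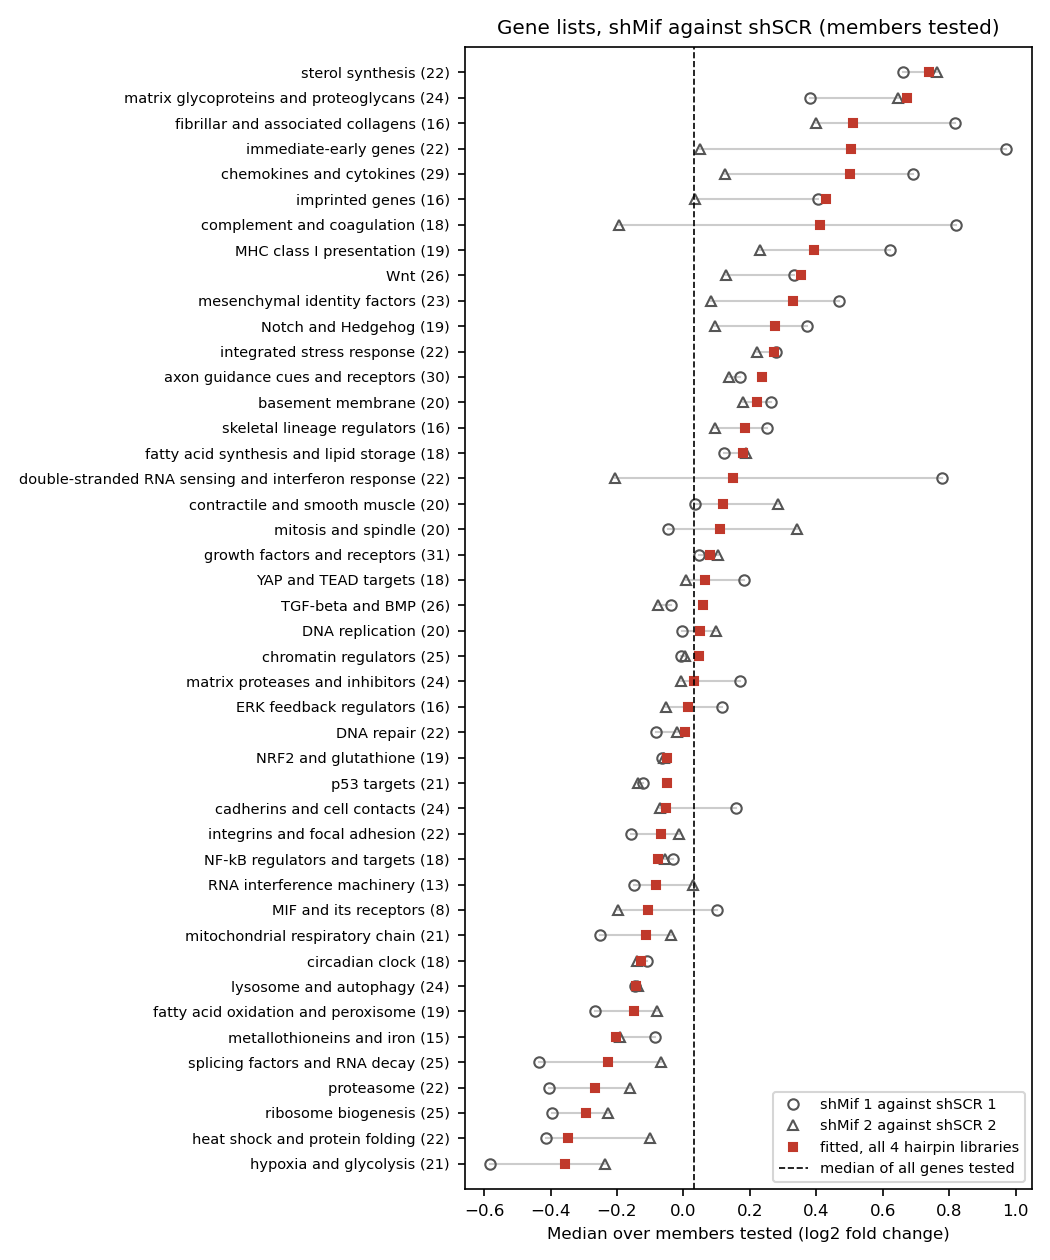
Median log2 fold change over the members tested of each of 44 program lists (red squares), with the number of members in brackets, beside the same median for libraries of the same number (open circles and triangles). Sterol synthesis lies highest at 0.74 and hypoxia and glycolysis lowest at -0.36; the dashed line is the median of all genes, 0.03.

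The list of sterol synthesis had the highest median. Cells make cholesterol from acetyl-CoA through the mevalonate pathway, and its genes are switched on together by the factor SREBP2 when sterol in the endoplasmic reticulum is low. All but 4 of the 22 members, 18, were higher in both libraries labelled shMif than in both shSCR libraries, and 0 were lower in both. At an unadjusted p under 0.05, 14 were higher and 0 lower, and DESeq2 called 5 higher. Insig1, the sterol sensor's anchor in the endoplasmic reticulum, stood at 45.1 and 49.7 CPM against 25.4 and 28.9. Sc5d, a late enzyme of the pathway, stood at 21.5 and 26.1 CPM against 12.1 and 14.96. The means were 1.74- and 1.76-fold apart for these 2, which both had an edgeR adjusted p of 0.407. Ebp stood at 15.6 and 19.9 CPM against 17.4 and 18.8, within the overlap of the groups. The list median was 0.74, 0.55 without shSCR 1 and 0.46 without shMif 2, and the guide libraries had a median of 1.32 for sgMif against sgSCR.

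The promoters of these genes are shown because 18 of the 22 members lay on the same side. Of the 22 genes, 14 had an entry in the RefSeq promoter table (assembly GRCm38.p6), and in all 14 the 250 bases before the start site held CCAAT on either strand, where it reads ATTGG on the opposite strand. The same letters stood in 37.5% of 27025 genes of that table and in 40.3% of the 11516 protein-coding genes tested here. CCAAT is the core recognised by the factor NF-Y, which is known to bind beside SREBP at sterol genes; a match is a description of the sequence and not a measured site. The 250 bases are printed on the gene's strand for the 4 members with the smallest p that had an entry, with the matches in capitals. They lie at chr5:28071162-28071411 on the plus strand for Insig1 (1 match), chr9:42264301-42264550 on the minus strand for Sc5d (1 match), chr8:64733579-64733828 on the minus strand for Msmo1 (3 matches) and chr5:114444019-114444268 on the plus strand for Mvk (5 matches).
Insig1: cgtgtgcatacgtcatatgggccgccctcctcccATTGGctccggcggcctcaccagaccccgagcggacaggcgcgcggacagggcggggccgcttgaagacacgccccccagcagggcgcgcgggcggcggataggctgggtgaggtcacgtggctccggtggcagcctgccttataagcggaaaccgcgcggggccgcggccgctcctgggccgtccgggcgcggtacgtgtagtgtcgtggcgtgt
Sc5d: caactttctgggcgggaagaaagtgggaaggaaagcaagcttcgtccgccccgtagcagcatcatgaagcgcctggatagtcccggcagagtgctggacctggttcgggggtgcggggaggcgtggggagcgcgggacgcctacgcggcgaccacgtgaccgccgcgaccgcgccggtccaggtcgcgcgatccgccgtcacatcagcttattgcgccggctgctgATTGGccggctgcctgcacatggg
Msmo1: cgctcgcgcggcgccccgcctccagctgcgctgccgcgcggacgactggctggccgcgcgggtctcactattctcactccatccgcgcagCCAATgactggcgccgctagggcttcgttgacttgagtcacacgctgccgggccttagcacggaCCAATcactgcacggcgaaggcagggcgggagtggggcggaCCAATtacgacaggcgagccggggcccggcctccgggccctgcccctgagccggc
Mvk: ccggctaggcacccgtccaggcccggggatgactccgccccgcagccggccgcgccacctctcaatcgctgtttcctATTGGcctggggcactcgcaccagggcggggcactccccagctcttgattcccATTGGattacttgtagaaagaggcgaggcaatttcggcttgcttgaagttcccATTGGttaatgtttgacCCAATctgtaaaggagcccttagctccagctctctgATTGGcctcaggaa

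Other genes of lipid metabolism varied in both directions. Msmo1 and Mvk, whose promoters are printed with those of the sterol list, stood at 80.4 and 105 CPM against 50.1 and 58.2, and at 14.9 and 16.7 CPM against 6.22 and 10.6. Of 18 genes of fatty acid synthesis and storage, 3 were higher and 1 lower at an unadjusted p under 0.05, and DESeq2 called the same numbers. The desaturases Scd1 and Fads1 stood at 86.5 and 97.0 CPM against 54.7 and 65.3, and at 92.0 and 115 CPM against 50.6 and 73.4. Plin2, the coat protein of lipid droplets, stood the other way, at 434 and 404 CPM against 918 and 703. Of 19 genes of fatty acid oxidation, 4 were lower and 2 higher, with a list median of -0.15 (-0.02 without shMif 1 and -0.25 without shMif 2) and 0 called by DESeq2. Cpt1a, which admits fatty acids to mitochondria, stood at 49.7 and 52.4 CPM against 77.7 and 73.6. None of Scd1, Fads1, Plin2 and Cpt1a passed edgeR, with an adjusted p of 0.352 to 0.439.

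Genes of the extracellular matrix made up the next 2 lists. Of 24 matrix glycoproteins and proteoglycans, 10 were higher and 2 lower at an unadjusted p under 0.05, with a median log2 fold change of 0.67 (0.25 without shMif 2, 0.95 without shMif 1 and 0.62 without shSCR 1), and DESeq2 called 6 higher and 1 lower. Ogn, a small proteoglycan, stood at 60.5 and 94.2 CPM in the libraries labelled shMif against 15.2 and 20.8 in shSCR. Vcan, the large proteoglycan versican, stood at 481 and 760 CPM against 381 and 377. The 2 lower genes were Thbs1, the adhesive glycoprotein thrombospondin 1, at 1310 and 874 CPM against 2270 and 1898, and Spp1, osteopontin, at 1133 and 1157 against 1678 and 1570. Fn1 and Dcn, fibronectin and decorin, did not differ beyond their spread, with log2 fold changes of 0.12 ± 0.17 and 0.09 ± 0.22 (edgeR adjusted p = 0.861 and 0.920). The matrix list thus held genes that were several-fold higher, genes that were lower and abundant genes with overlapping levels.

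Of 16 fibrillar and associated collagens, 5 were higher and 1 lower at an unadjusted p under 0.05, and 9 were higher and 1 lower without overlap. Col1a1, the main chain of type I collagen, stood at 5690 and 8589 CPM in the libraries labelled shMif against 1979 and 3587 in shSCR. Col3a1, of type III collagen, stood at 7652 and 12610 CPM against 4192 and 5333. Col1a2 stood at 5592 and 8146 CPM against 2832 and 4604. In each of these the second library of a group was above the first, and the lowest of the libraries labelled shMif still lay above the highest shSCR library. Col24a1, a minor fibrillar collagen, stood at 11.7 and 14.5 CPM against 23.6 and 18.8. The list median of 0.51 was 0.26 without shSCR 1, 0.31 without shMif 2 and 0.95 without shSCR 2, and DESeq2 called 3 higher. Lama4, a laminin chain of vessel and muscle basement membranes, stood at 114 and 180 CPM against 76.9 and 64.2, while Col4a1, of type IV collagen, was lower at 712 and 716 against 1047 and 1100. Markers of skin fibroblasts, which make many of the same proteins, lay mostly on the same side: 8 of 11 were higher without overlap and 0 lower, and 5 were higher at an unadjusted p under 0.05. Their summed level was 1387 and 1429 CPM against 1244 and 1418, and their part in the matrix values was not tested.

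Proteases that act on matrix were mixed. Of 24 proteases and inhibitors, 5 were higher and 4 lower at an unadjusted p under 0.05, with a median of 0.03 that was 0.10, 0.16, 0.20 and 0.08 without shMif 1, shMif 2, shSCR 1 and shSCR 2, and DESeq2 called 2 higher. Adamts2, which trims the ends of procollagens, stood at 30.0 and 43.2 CPM against 10.6 and 11.7. Adamts12 stood at 22.8 and 39.6 CPM against 12.5 and 11.02. Plau, the urokinase plasminogen activator, was lower at 134 and 148 CPM against 277 and 224, and its relative Plat was higher at 210.1 and 268 against 172 and 172. The 2 plasminogen activators therefore stood on opposite sides.

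Of 29 chemokines and cytokines, 12 were higher and 1 lower at an unadjusted p under 0.05, with a median of 0.50 (0.38 without shSCR 1 and 0.77 without shMif 2), and DESeq2 called 3 higher. Beside Ccl2 and Ccl7, Ccl11, the eotaxin that draws eosinophils, stood at 2.42 and 2.70 CPM against 1.06 and 0.525. Cxcl12, a chemokine of stromal cells, stood at 81.7 and 112 CPM against 49.8 and 74.3, and Csf1, the growth factor of macrophages, at 204 and 205 against 126 and 158. These 3 were chosen after their values were seen, and none passed edgeR's adjusted test. Cxcl5, a neutrophil chemokine, was near the detection limit in shSCR, at 0.0519 and 0.0404 CPM, against 1.70 and 1.11 CPM. Csf3, the granulocyte growth factor, was the lower member, at 0.103 and 0.228 CPM against 2.83 and 0.949. Leukocyte markers overlapped between the groups, at a summed 163 and 82.5 CPM against 122 and 113, and their part in these values was not tested.

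Several lists of responses to signals or stress were higher in only one of the same-numbered comparisons. For 22 immediate-early genes, which are induced within minutes of a stimulus, the median was 0.97 between the libraries numbered 1 and 0.05 between those numbered 2. Egr1 stood at 224 and 182 CPM against 63.3 and 112, and Egr2 at 22.7 and 13.1 CPM against 7.39 and 7.59. Junb stood at 1568 and 1069 CPM against 228 in shSCR 1 and 1209 in shSCR 2, so its low value belonged to shSCR 1. In this list 6 were higher and 0 lower at an unadjusted p under 0.05, DESeq2 called 2 higher, and the median of 0.50 became 0.22 without shSCR 1, 0.28 without shMif 1 and 0.82 without shSCR 2. For 22 genes of double-stranded RNA sensing and interferon response the corresponding medians were 0.78 and -0.20. Oas2, an enzyme activated by double-stranded RNA, stood at 36.0 and 25.0 CPM against 9.91 and 20.7, and Zbp1, a nucleic acid sensor, at 59.7 and 47.9 against 23.2 and 40.1. The interferon list held 4 higher and 0 lower members at an unadjusted p under 0.05, DESeq2 called 0, and its median of 0.15 turned to -0.18 without shSCR 1 and 0.70 without shSCR 2. The low library was again shSCR 1.

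Presentation on MHC class I had a positive median in both same-numbered comparisons, 0.62 for the libraries numbered 1 and 0.23 for those numbered 2. Of its 19 genes 12 were higher without overlap and 2 lower, with a median of 0.39 (0.20 without shSCR 1 and 0.63 without shSCR 2), and 3 were higher and 1 lower at an unadjusted p under 0.05. Tapbp, tapasin of the peptide-loading complex, stood at 371 and 375 CPM against 202 and 294. H2-Q7, a nonclassical class I gene with near-identical relatives among which reads could be split, stood at 69.3 and 32.6 CPM against 17.1 and 19.6. Among 22 genes of the integrated stress response, which ATF4 drives when amino acids or protein folding fail, 13 were higher without overlap and 0 lower, and 4 were higher and 0 lower at an unadjusted p under 0.05. The medians between same-numbered libraries were 0.28 and 0.22, so both numbers showed it. Trib3, a pseudokinase induced by ATF4, stood at 7.002 and 5.35 CPM against 1.84 and 2.85, and Slc7a5, a transporter of large amino acids, at 86.3 and 90.2 against 35.8 and 64.6. DESeq2 called 1 gene higher in each of these 2 lists.

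Lists of protein production and turnover lay on the lower side. Of 25 genes of ribosome biogenesis, 18 were lower and 1 higher without overlap, and 9 were lower and 0 higher at an unadjusted p under 0.05, with a median of -0.29 (-0.27 without shSCR 1). Ncl, nucleolin, stood at 646 and 673 CPM in the libraries labelled shMif against 1277 and 845 in shSCR. Gnl3, a nucleolar GTPase, stood at 66.0 and 77.2 CPM against 128 and 99.9. The highest value of both was in shSCR 1, with shSCR 2 between it and the libraries labelled shMif. Of 22 proteasome genes 15 were lower and 0 higher without overlap, with a median of -0.27 (-0.23 without shSCR 1). Psmc1, an ATPase of the regulatory particle, stood at 99.3 and 122 CPM against 187 and 142. Of 22 genes of heat shock and folding 12 were lower and 6 higher without overlap, the latter near the share over all genes, and 9 were lower and 2 higher at an unadjusted p under 0.05, with a median of -0.35 (-0.17 without shSCR 1). Hspd1, the mitochondrial chaperonin, stood at 339 and 364 CPM against 606 and 511, and DESeq2 called 1 gene of this list lower. Of 25 splicing and decay genes 15 were lower and 1 higher without overlap, with a median of -0.23 (-0.15 without shSCR 1 and -0.38 without shSCR 2). DESeq2 called 0 genes in the ribosome, proteasome and splicing lists, which held 9, 7 and 3 lower members at an unadjusted p under 0.05.

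Of 21 genes of hypoxia and glycolysis, 14 were lower and 2 higher without overlap, and the median of -0.36 was the lowest of the program lists (-0.27 without shSCR 1). Slc2a1, the glucose transporter GLUT1, stood at 977 and 925 CPM against 1819 and 1236. Ndrg1, a gene induced by low oxygen, stood at 804 and 771 CPM against 1638 and 996. Lox, which cross-links collagen and is also induced by low oxygen, stood the other way, at 726 and 667 CPM against 369 and 450. At an unadjusted p under 0.05, 7 were lower and 2 higher, while DESeq2 called 1 higher and 0 lower. Of 24 lysosomal and autophagy genes 12 were lower and 5 higher without overlap, the latter near the share over all genes, with Ctsl in the lead and a median of -0.14; at an unadjusted p under 0.05, 4 were lower and 0 higher, and DESeq2 called 1 lower. Ctsb, cathepsin B, stood at 959.7 and 950.1 CPM against 1362 and 1171, in the same direction as Ctsl.

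In lists of growth and developmental signalling the medians were smaller than in the sterol and matrix lists. Of 20 mitosis genes 5 were higher and 0 lower at an unadjusted p under 0.05, with a median of 0.11 (0.28 without shMif 1, -0.022 without shMif 2 and 0.17 without shSCR 1). Cdc20, an activator of the anaphase-promoting complex, stood at 61.9 and 77.7 CPM against 32.3 and 53.5. DNA replication had a median of 0.05, which had no stable sign (-0.11 without shMif 2, -0.023 without shSCR 1, 0.17 without shMif 1 and 0.14 without shSCR 2), with 0 of 20 genes past that level, and DESeq2 called 0 in either cycle list. Of 26 Wnt genes 4 were higher and 0 lower, with a median of 0.35 (0.06 without shSCR 1 and 0.55 without shSCR 2), and Wnt9a, a ligand, stood at 14.9 and 20.2 CPM against 3.76 and 6.26. Of 30 axon guidance genes 6 were higher and 0 lower, DESeq2 called 2 higher there and 1 in the Wnt list, and the cue Slit3 stood at 309 and 286 CPM against 143 and 180. Kitl, the ligand of the mast cell receptor Kit, stood at 18.7 and 31.4 CPM against 7.91 and 9.81. Ereg, the EGF-family ligand epiregulin, stood lower, at 109 and 72.2 CPM against 175 and 175. Among YAP and TEAD targets, F3, tissue factor, was lower at 92.9 and 92.4 CPM against 272 and 169, and the list median was 0.07 (0.0086 without shSCR 1 and 0.18 without shSCR 2). Vgll3 was thus the only member of that list to pass edgeR's test, while Nt5e and F3 lay on the opposite side.

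Markers of other cell types were measured because a tumour sort can hold them. In shMif 1 the macrophage markers summed to 639 CPM, against 346 in shMif 2 and 326 and 402 in shSCR 1 and 2. At an unadjusted p under 0.05, 0 of the 20 macrophage genes differed, with 0 called by edgeR or DESeq2. B and plasma cell markers summed to 57.9 CPM in shMif 1 and to 7.51 to 14.2 CPM in the other 3. Erythroid and platelet markers summed to 64.0 CPM in shMif 1 and to 12.9 to 22.9 CPM in the others. In these classes the single library shMif 1 was high and the groups overlapped.

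Mast cell markers were the exception among the blood cell classes. All 5 tested, Kit, Cpa3, Cma1, Mcpt4 and Tpsb2, were higher in both libraries labelled shMif than in both shSCR libraries, with 3 higher at an unadjusted p under 0.05, 0 past edgeR's adjusted test and 0 in DESeq2. Their summed level was 16.7 and 10.04 CPM against 1.22 and 3.71. The guide libraries went the other way, with 1.10 and 2.12 CPM in sgMif against 16.1 and 8.77 in sgSCR. Cpa3, the mast cell carboxypeptidase, stood at 2.78 and 1.05 CPM against 0.130 and 0.404, and Tpsb2, a tryptase, at 7.77 and 4.38 against 0.156 and 1.53. The markers Cd79b, Ly6g, Elane, Camp, Sox10, Adipoq and Krt5 were too low to be tested. Endothelial markers summed to 176 and 68.1 CPM against 211 and 49.8, with the libraries numbered 1 high in both groups. Summed levels of mesenchymal tumour cell markers, led by Vim and type I collagen, were 19706 and 24896 CPM against 12933 and 18173. Of these 11 markers, 7 had a positive and 4 a negative log2 fold change. The list median of 0.52 was 0.03 without shSCR 1. In this sum Col1a1 and Col1a2 were higher without overlap, whereas Vim overlapped between the groups.

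**Figure D4:**
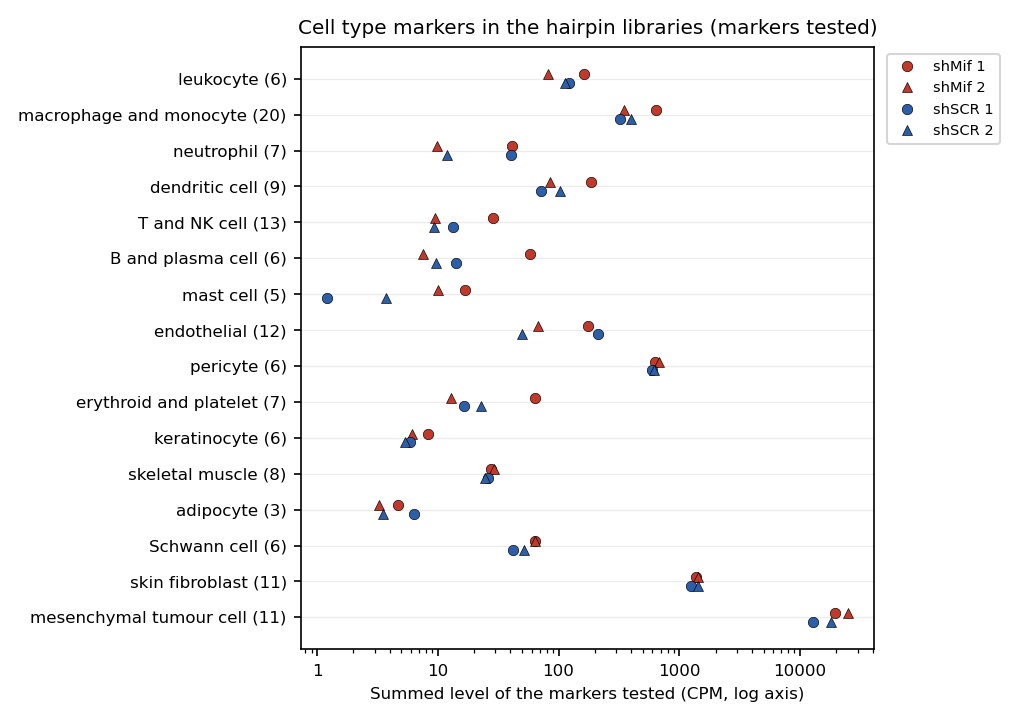
Summed CPM (log axis) of the markers tested for each of 16 cell types in the 4 hairpin libraries, with the number of markers in brackets. The mast cell row separates the groups, at 16.7 and 10.04 CPM against 1.22 and 3.71. The pericyte, keratinocyte, skeletal muscle, Schwann cell and mesenchymal tumour cell rows also separate them, by a narrower gap. Macrophage, B cell and erythroid rows show shMif 1 apart from the other 3.

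The contrast of the libraries labelled shMif with shSCR was then set against the guide contrast, sgMif against sgSCR, which has its own control libraries. The difference of the 2 contrasts passed edgeR's test for 15 genes, 0.092% of those tested, and 9 of these met the rule for named genes. That rule left out genes whose shMif and shSCR libraries overlapped, such as Rgs17 and Pla2r1. Their hairpin contrasts were 0.03 and -0.04 on the log2 scale, and their guide contrasts -1.73 and -3.50. The 9 were therefore picked partly by their hairpin values. For Ccn5 and Itgb4, which rose in the first contrast, the log2 fold changes of the guide contrast were -0.49 ± 0.24 and -0.43 ± 0.24 (edgeR adjusted p = 0.355 and 0.412). For Rarres2, which encodes the chemoattractant chemerin, the guide contrast gave -3.70 ± 0.42 on the log2 scale (edgeR adjusted p = 0.0192) and the hairpin contrast 1.34 ± 0.39 (adjusted p = 0.456). Rarres2 stood at 10.5 and 5.29 CPM in the libraries labelled shMif and at 3.03 and 3.13 in shSCR, against 47.6 and 32.6 in sgSCR and 3.97 and 2.28 in sgMif. Il33, an alarmin cytokine, stood at 5.10 and 3.98 CPM in the libraries labelled shMif, 2.33 and 2.42 in shSCR, 41.7 and 38.3 in sgSCR and 7.81 and 5.25 in sgMif. For both genes all hairpin libraries lay below both sgSCR libraries.

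For Enpp2, Cth, Lox and Fbln5 the log2 fold change was likewise negative in the guide contrast and positive in the hairpin contrast. None of these genes passed in the hairpin contrast. The edgeR adjusted p there was 0.481 for Enpp2, 0.810 for Cth, 0.352 for Lox and 0.1385 for Fbln5. The hairpin log2 fold change of Cth, 0.17 ± 0.20, was smaller than its SE. In the guide contrast that of Fbln5, -0.85 ± 0.20, did not pass (edgeR adjusted p = 0.0884). Enpp2, the enzyme autotaxin that makes lysophosphatidic acid, stood at 63.1 and 87.3 CPM in the libraries labelled shMif and 50.5 and 34.6 in shSCR, with a difference of contrasts of 3.25 ± 0.39 on the log2 scale (edgeR adjusted p = 0.0471). Cth, which makes cysteine from cystathionine, stood at 6.49 and 7.42 CPM against 6.15 and 6.22 in the hairpin libraries and at 40.3 and 45.2 CPM in sgSCR. Nes, the intermediate filament nestin, went the other way: it stood at 328 and 369 CPM in the libraries labelled shMif and 489 and 525 in shSCR, whereas it rose in the guide contrast, from 183 and 164 CPM in sgSCR to 335 and 333 in sgMif (log2 fold change 0.94 ± 0.13, edgeR adjusted p = 0.033). The hairpin contrast for Nes gave -0.54 ± 0.13 (edgeR adjusted p = 0.424). Over the 11666 genes whose mean log2 CPM reached 1, Pearson's r between the log2 fold changes of the 2 contrasts was -0.14. It is a description across genes that are not independent replicates.

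**Figure D5:**
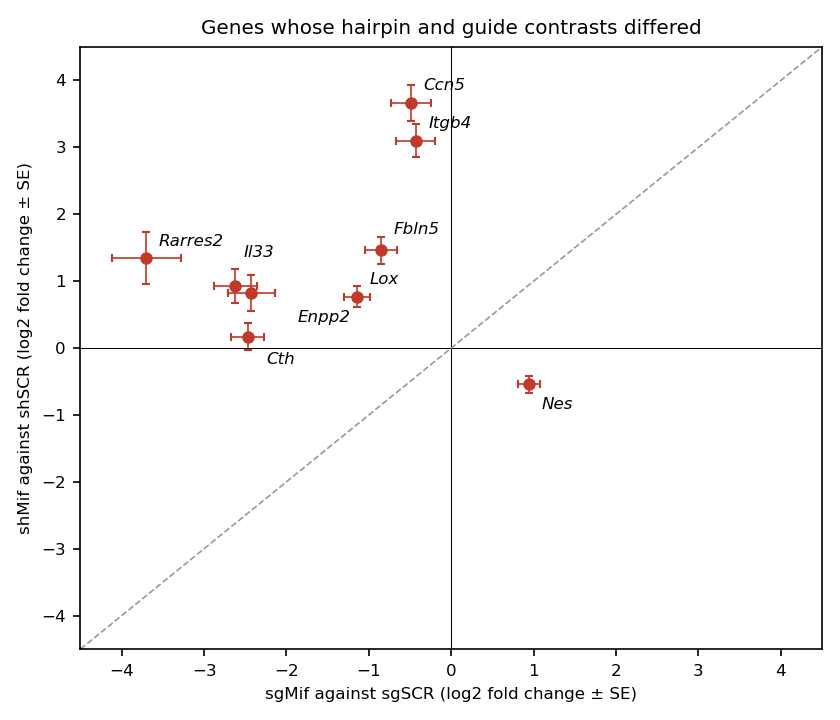
Log2 fold changes ± SE of shMif against shSCR (vertical axis) and of sgMif against sgSCR (horizontal axis). Shown are 9 of the 15 genes whose contrasts differed in edgeR, kept by a naming rule that required no overlap between shMif and shSCR. Points on the dashed line would have equal values; 8 genes lie above it, up to Rarres2 with a difference of 5.04, and Nes lies below it at -1.48.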

How the data were processed

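Bulk RNA was measured in 8 libraries, grouped by sample title. Per the submitters' processing notes, the authors used Trimmomatic and Salmon against build mm10; the sources used here give no version, option, library kit or strandedness. The deposited tables hold estimated counts per transcript and TPM values, per the file headers; TPM entered only the alternative scaled by effective length. Estimated counts were summed per gene through GENCODE M21 and rounded. Each of the 569 unmatched transcripts was left out; together they held 0.101 to 0.205% of reads. Genes were kept with filterByExpr (minimum count 10, minimum total 15), scaled by TMM and tested with edgeR 4.0.16 (quasi-likelihood, R 4.3.3) fitting the means of all 4 groups together (residual degrees of freedom 4), with p adjusted over all 16309 genes by Benjamini-Hochberg at 0.05. Library totals of 19042235 to 51819308 reads set the counting precision. How reads were shared among overlapping, antisense or highly similar genes cannot be seen in these tables.

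The 45 program lists and 16 cell type lists hold 1092 genes, 1080 of them in the tables; the 12 genes of 1 list, of nuclear noncoding RNAs, were not among those matched. The members and lists were chosen with earlier results of these data known. Genes are named by this rule: Mif first, then the 20 smallest p-values (since under 10 genes passed) among genes whose groups do not overlap and whose mean log2 CPM reaches 1, without predicted genes, pseudogenes and small RNA genes; up to 4 members with the smallest p per list; and up to 5 genes in each direction for the difference of contrasts. Any other gene, such as members of a list described beside the leading 4, was chosen after its values were seen. Alternatives were RLE size factors, DESeq2 1.42.0, no filter, effective-length scaling, a replicate block, the hairpin libraries alone, leaving out each hairpin library in turn and, added after the data were seen, the hairpin libraries alone with the block. When a library was left out, its group kept 1 library, whose variation was taken to equal that of the rest. The fit was tested on simulated data. Python 3.11.15 with pandas 2.3.3 made the tables. Some genes of the lists are not reported here by name.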

Additional observations from a re-analysis of the deposited data

Results flagged for a closer look

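For 9 genes the contrast of shMif with shSCR differed from that of sgMif with sgSCR by edgeR's test of the difference itself. The edgeR adjusted p was 0.0375 to 0.0487, with SE of 0.18 to 0.57 on the log2 scale. These are the part of 15 passing genes that met the naming rule, which required no overlap between shMif and shSCR. The hairpin contrast minus the guide contrast was -1.48 for Nes and 1.91 for Lox, both with groups that did not overlap within either system. It was 2.31 for Fbln5 and 2.64 for Cth, the latter with a hairpin contrast of 0.17. It was 3.25 for Enpp2 and 3.55 for Il33, an enzyme and a cytokine whose level in each hairpin library was below both sgSCR libraries. It was 3.53 for Itgb4 and 4.16 for Ccn5, which also passed the test of shMif against shSCR in the fit of all 8 libraries (in the 4 hairpin libraries alone, edgeR adjusted p = 0.173 for both). The largest of the 9 was 5.04 for Rarres2. Without shMif 1 or without shMif 2 the test of the difference called 0 genes.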

How the results depend on the processing

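In place of 3 genes higher, 0 lower and 15 with a difference of contrasts, DESeq2 called 123, 47 and 575. No filter on low counts gave 395, 267 and 1306, and counts scaled by effective length gave 0 higher, 0 lower and 0 with a difference, with 1363 genes at an unadjusted p under 0.05. Leaving out 1 library at a time gave 0 to 568 higher, 0 to 190 lower and 0 to 527 with a difference. The highest of each came without shSCR 2, the 0 higher without shMif 2 (1202 genes at an unadjusted p under 0.05) and 5 higher without shSCR 1. In these settings the cause was not tested. The hairpin libraries alone, with fewer residual degrees of freedom, gave 0 higher and 0 lower, with 1054 genes at an unadjusted p under 0.05.

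With a replicate block 12 were higher, 2 lower and 50 differed; in the hairpin libraries alone with that block, 1 was higher and 1 lower. Deviations of same-numbered libraries correlated at 0.31 for shMif with shSCR, and with 2 pairs the numbers are not shown to pair the samples.

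The log2 fold change of Mif changed sign without shMif 2 (0.02) and without shSCR 2 (0.55), and in the hairpin libraries alone with the replicate block (0.0054); over the libraries left out it ran from -0.59 to 0.55. The 20 named genes kept their direction in each of the 11 settings. Of the 3 called genes, Ccn5 and Vgll3 passed in 7 settings and Itgb4 in 6. Over all alternatives, list medians moved by less than the spread between libraries in 488 cases and by more in 172. Having 2 libraries per group limits what can be called.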

Other observations

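The 13 mitochondrial genes tested had a median log2 fold change of 0.54 for the libraries labelled shMif against shSCR, with 9 higher without overlap and medians of 0.73 and 0.41 between same-numbered libraries. At an unadjusted p under 0.05, 6 were higher, and the smallest edgeR adjusted p was 0.439. The 21 nuclear genes of the respiratory chain had a median of -0.11, with 3 lower and 0 higher at that level, medians of -0.25 and -0.04 between same-numbered libraries, and values of 0.015 without shMif 1 and -0.24 without shMif 2. Sdha, a nuclear subunit of complex II, stood at 112 and 127 CPM against 171 and 150.

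By chromosome, genes of chromosome 14 had the lowest median, -0.21 over 400 genes, with -0.22 and -0.17 between same-numbered libraries, against 0.03 for the guide comparison. The other chromosomes ran from -0.16 (X, 342 genes) to 0.11 (7, 847 genes). Transcripts of 245 processed pseudogenes had a median of -0.13, with -0.28 between the libraries numbered 1 and -0.0078 between those numbered 2, against -0.01 for 11323 protein-coding genes. Of 18 complement and coagulation genes, 3 were higher and 2 lower at an unadjusted p under 0.05, with a median of 0.41 that was -0.0093 without shMif 1, 0.74 without shMif 2 and 0.70 without shSCR 2, and 0.82 and -0.19 between same-numbered libraries. Serping1, the inhibitor of C1, stood at 42.1 and 35.2 CPM against 6.35 and 8.60, and C4b at 19.2 and 13.5 against 5.73 and 8.03. Neither passed edgeR's adjusted test (0.410 and 0.352). Peg10, an imprinted gene derived from a retrotransposon, stood at 81.0 and 84.3 CPM against 33.8 and 48.8 (edgeR adjusted p = 0.410).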
